A study of Mus musculus with 4 samples.

Results

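Neutrophils carry ready-made antimicrobial proteins in granules that are filled one kind after another while the cell matures in the marrow. Azurophil granules, with myeloperoxidase and serine proteases, are filled first, specific granules next and gelatinase granules last, so that a protein's granule is largely set by when its gene is transcribed. The genes described here are 7 whose proteins are stored in specific granules or made at that stage: Camp, Ngp, Ltf, Lcn2, Chil3, Cd177 and Fcnb. They were taken by symbol from the 31053 genes of the matrix, and all 7 were found.

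The cells came from the proximal and distal tibia of 8-week-old mice, were released with dispase, collagenase and trypsin, and were measured by 10x Genomics droplet RNA sequencing. The labels give 1 group of 4 sample records, with the genotype Col10a1Cre, Rosa26-Tdtomato, Irx3 +/Δ and Irx5 +/-, called the Irx3/5 heterozygous control, and without PTH in the title. Every animal therefore carries the Cre, the reporter and both heterozygous alleles, and Col10a1 drives the Cre in hypertrophic cartilage cells rather than in blood cells. All barcodes carry 1 suffix, so the 4 records cannot be told apart and count as 1 library, with no replicate and no test. Intervals are at 95% and hold counting error alone.

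Over 15014 barcodes, 90273806 UMIs were counted (a UMI tags 1 captured RNA molecule), and 10485 cells in 30 clusters were kept. Classes were named from marker genes that did not include the 7. The library labelled as tibia was mostly blood-forming cells: 2842 cells (27.1%) were neutrophil-like, 3507 B lineage-like, 1862 erythroid-like, and 14 osteoblast-like. A further 390 cells (3.72%) were azurophil progenitor-like, led by Elane, Prtn3 and Mpo. Levels are given as CPM, the gene's summed UMIs in a class scaled to a common total for every class. A molecule is counted once whatever its length, so levels of different genes do not scale with transcript length, although capture can differ between genes.

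The 7 genes together made up 11.9% of all UMIs in neutrophil-like cells, 3.68% in azurophil progenitor-like cells and 0.0520% in B lineage-like cells. Of all UMIs of the 7 genes, 83.9% lay in neutrophil-like cells and 11.6% in azurophil progenitor-like cells. Among all genes of these 3232 cells, Camp ranked 3 by UMIs, Ngp 4, Lcn2 6, Ltf 8, Chil3 13, Cd177 170 and Fcnb 216. More cells with a gene and more RNA per cell both raise such a sum.

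Camp encodes the mouse cathelicidin, the precursor of an antimicrobial peptide. It stood at 52337 CPM (52230 to 52445) in neutrophil-like cells, against 4534 CPM in all other kept cells, 11.5 times as much. Ngp encodes a secreted granule protein related to cystatins and cathelicidins. Its level was 36013 CPM in neutrophil-like cells and 1525 CPM in all others, a ratio of 23.6. These were the highest levels among the 7 genes in both classes of the lineage.

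Ltf and Lcn2 encode proteins that withhold iron from bacteria: lactoferrin binds iron itself, and lipocalin 2 binds the siderophores that carry it. Ltf had 10199 CPM in neutrophil-like cells, against 220 CPM in all others, a ratio of 46.4 (45.5 to 47.3). Lcn2 had 11291 CPM in neutrophil-like cells, against 282 CPM in all others, a ratio of 40.1 (39.4 to 40.7). All others here include the azurophil progenitor-like cells, with Camp at 26565 CPM and Ltf at 297 CPM. A gene already high in those cells has a lower ratio for that reason. The ratios of Ltf and Lcn2 were the 2 largest of the 7. They depended on the processing, with Ltf between 3.78 and 121 and Lcn2 between 3.39 and 86.1 over the alternatives run, and in 4 of these Cd177 had a larger ratio than Lcn2, as at a limit of 20% mitochondrial UMIs with 8.81 against 8.72.

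Chil3, the chitinase-like protein Ym1, had 7887 CPM in neutrophil-like cells, against 452 CPM in all others, a ratio of 17.4. Reads shared with its near copies may affect its counts. Cd177, a surface protein held on the membrane by a lipid anchor and stored in granule membranes, had 1012 CPM in neutrophil-like cells, against 33.5 CPM in all others, a ratio of 30.2. Thus 6 of the 7 genes reached a ratio of 4, as did 4.36% of the 13615 genes measured.

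Fcnb, the lectin ficolin B that recognises sugars on microbes, was the exception. It had 379 CPM (370 to 388) in neutrophil-like cells, against 116 CPM in all others, a ratio of 3.27. Its highest class was the azurophil progenitor-like one, with 762 CPM (743 to 782), above neutrophil-like cells. There it was seen in 318 of 390 cells (81.5%), compared with 805 of 2842 neutrophil-like cells (28.3%), at median depths of 18774.5 and 4399 UMIs. With each cell thinned to 1000 UMIs the shares were 45.1% and 11.5%. The other 6 genes were lower in azurophil progenitor-like than in neutrophil-like cells, from Camp at 26565 against 52337 CPM to Ltf at 297 against 10199 CPM.

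The count of 6 rests on the name given to 1 cluster. The 658 most immature neutrophil-like cells, led by Inhba, Orm1 and Cebpe, had 3 raised neutrophil markers, the fewest that give the name. Of those still present at a limit of 5% mitochondrial UMIs, 12.2% remained neutrophil-like, and the count of genes past a ratio of 4 was then 0, with Ltf still highest at 3.78. At a limit of 20%, with at least 1500 UMIs per cell, or with the 7 genes kept in the clustering, 22.0%, 20.7% and 11.4% remained and the count was 4 each time.

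**Figure D1:**
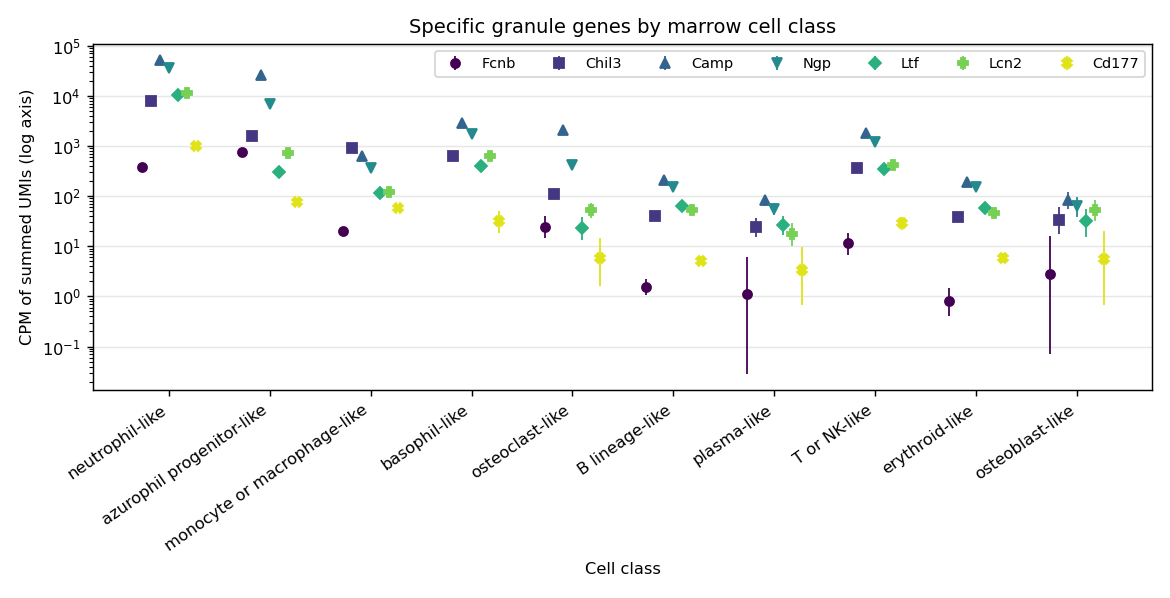
CPM of the 7 genes (log axis) in each named cell class, with 95% Poisson intervals and every kept barcode included. Neutrophil-like cells have the highest level of 6 genes, Camp at 52337 CPM, while Fcnb is highest in azurophil progenitor-like cells at 762 CPM.

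Outside the lineage nearly every cell class held some UMIs of these genes, at low level and in similar proportions. A UMI of Camp was present in 83.9% of neutrophil-like cells, with a median depth of 4399 UMIs, against 52.2% of B lineage-like cells, with a median depth of 3072. With each cell thinned to 1000 UMIs the shares were 78.1% of 2751 neutrophil-like cells and 19.7% of 3418 B lineage-like cells. For Fcnb the thinned shares were 11.5% in neutrophil-like cells and 0.146% in B lineage-like cells. The B lineage is not known to make these proteins, so its share is read as background.

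Single barcodes weighed heavily in the small classes. Of 1404 Camp UMIs in the 35 osteoclast-like cells, 1371 came from 1 barcode, which also held 1421 of the 1520 S100a8 UMIs and 70 of the 72 Elane UMIs. In T or NK-like cells the highest barcode held 935 of 2812 Camp UMIs. Outside the neutrophil-like and azurophil progenitor-like cells, 142 barcodes had over 2% of their UMIs from S100a8 and S100a9, calprotectin genes very abundant in neutrophils. Without them, a choice made after the data were seen, the ratio of neutrophil-like cells to all others was 121 for Ltf, 86.1 for Lcn2 and 49.5 for Cd177. These barcodes were taken from the other cells alone, so a rise in the ratio was built into the choice. Camp was then at 50.1 CPM in osteoclast-like cells and 161 CPM in T or NK-like cells, and at 149 CPM in B lineage-like cells, against 206 CPM with them.

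Without these barcodes, 4 classes had nearly the same make-up of the 7 genes' UMIs. In B lineage-like, T or NK-like, erythroid-like and plasma-like cells, Camp was 36.9% to 38.7%, Ngp 26.7% to 30.6%, Ltf 11.2% to 13.3% and Lcn2 8.25% to 9.37%. Chil3 was 8.68% to 11.7%, Cd177 1.05% to 1.57% and Fcnb 0.204% to 0.524%. The macrophage cluster led by C1qa and C1qb, and an unnamed cluster led by Siglech, Ctla2a and Ccr9, had Camp at 40.1% and 42.2%. The unnamed cluster had 7 raised haematopoietic progenitor markers and 6 raised dendritic ones, with Siglech and Ccr9 among the latter. In it Camp was at 93.8 CPM and Fcnb at 1.07 CPM, from 3 UMIs.

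In monocyte or macrophage-like cells 3 of the 7 genes took a larger share than in B lineage-like cells, and the other 4 a smaller one. Chil3 made up 71.7% of the UMIs of the 7 genes, against 8.68% in B lineage-like cells. Cd177 made up 4.25% against 1.08%, and Fcnb 1.17% against 0.314%, each with intervals that did not overlap. Shares of a whole move together, so UMIs per Camp UMI were also set side by side. Lcn2 then stood at 0.365 (0.316 to 0.420) in monocyte or macrophage-like cells and 0.249 (0.229 to 0.271) in B lineage-like cells, while Ltf stood at 0.347 and 0.344 with overlapping intervals. Most of these cells belonged to the monocyte cluster led by Fn1 and F13a1. In its 620 cells Chil3 was at 947 CPM, against 34.5 CPM in B lineage-like cells, and Cd177 at 55.8 against 4.29 CPM. Camp and Ltf in that cluster, at 97.3 and 35.2 CPM, were no higher than in B lineage-like cells, at 149 and 51.3 CPM.

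Within that monocyte cluster, cells with and without a UMI of Mpo, the azurophil gene also active in progenitors, were set side by side. This split was chosen after the data were seen, and the 2 sets differ in depth, whose part was not tested. Chil3 was at 578 CPM in the 105 cells with an Mpo UMI, with a median depth of 15785 UMIs, and at 1095 CPM in the 515 cells without one, with a median depth of 7341. Cd177 had the same order, at 30.5 CPM with Mpo and 66.0 CPM without. Fcnb had the opposite order, at 31.7 CPM with Mpo and 8.33 CPM without. Fcnb was thus again higher in the progenitor-marked cells, and Chil3 and Cd177 lower.

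Ltf had a level of its own in 1 unnamed cluster of 79 cells. This cluster was shallow, with a median of 592 UMIs, and was led by Psca, Mal and Krt13, genes of stratified epithelia, and Krt13 had 514 UMIs in 77 of the cells. Ltf was at 4744 CPM (4175 to 5369), from 251 UMIs in 63 cells with at most 17 in 1 cell. It made up 85.1% of the UMIs of the 7 genes there, against 12.9% in B lineage-like cells, while Camp had 29 UMIs and Mpo and Elane had 0. No epithelial markers were among those used for naming. In the 66 basophil-like cells, on 171 UMIs of the 7 genes, Lcn2 made up 21.1% (36 UMIs) and Ltf 4.68% (8 UMIs).

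**Figure D2:**
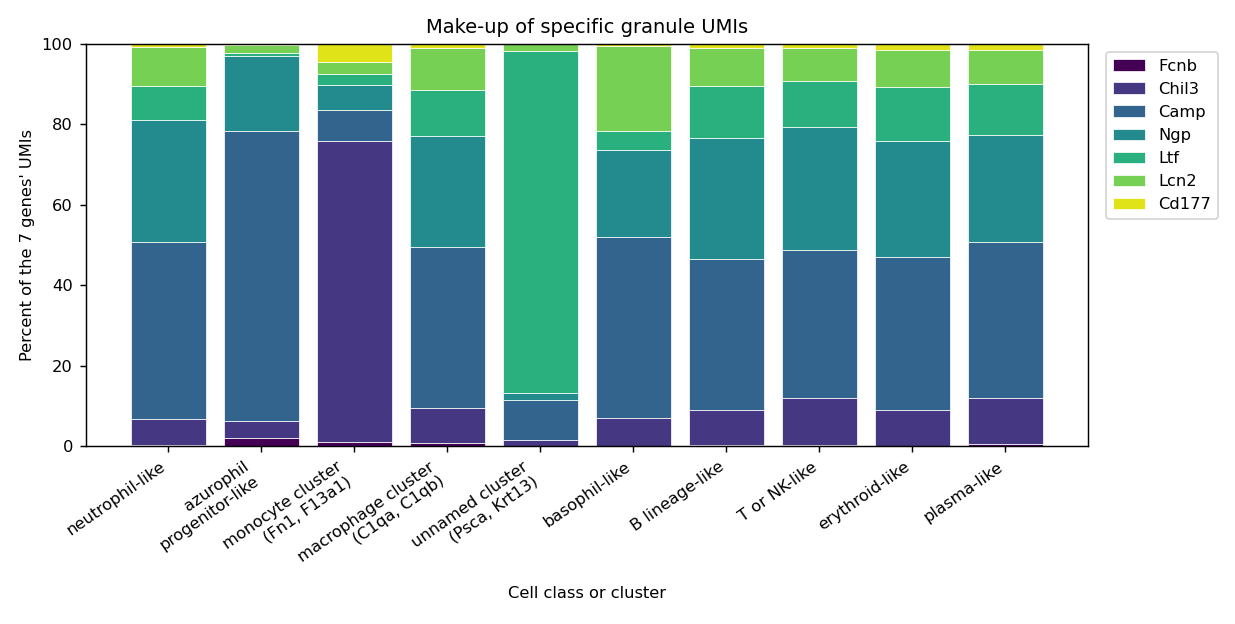
Share of each gene (percent) among the UMIs of the 7 genes in cell classes and clusters, without the barcodes rich in S100a8 and S100a9. The lymphoid, erythroid, plasma and macrophage bars are alike, while Chil3 fills 74.6% of the monocyte bar and Ltf 85.1% of the bar led by Psca and Krt13.

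The 3232 neutrophil-like and azurophil progenitor-like cells were then ordered by the difference between late genes, such as Cxcr2 and Il1b, and early genes, such as Mpo and Mki67, and cut into 10 bins of 323 or 324 cells. None of the 7 genes took part in the ordering. A bin is a range of a score, not a cell type. Median depth fell along the order, 19653 UMIs in bin 1 and 1881 in bin 10. Levels are therefore given as CPM, which is relative to depth, with median UMIs per cell set beside the peaks.

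The 7 genes came on and went off at different points. The centre of expression, the mean position of a gene's CPM over the ordered cells as a percentile, was 18.3 for Fcnb, 32.7 for Chil3, 33.6 for Camp, 40.0 for Ngp, 43.8 for Ltf, 46.2 for Lcn2 and 48.5 for Cd177. The intervals of neighbours did not overlap, and the order was the same under each of the other settings tried.

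Fcnb was at 727, 915, 530, 291 and 101 CPM in bins 1 to 5 and at 19.95, 10.02, 4.36 and 2.61 CPM in bins 6 to 9. It had 0 UMIs in bin 10, which allows up to 4.46 CPM by a limit of 3 counts, so its peak was at least 205-fold higher by that limit. Bin 2 was its peak. Fcnb was the first of the 7 to fall, and in bin 6 it was seen in 4.01% of cells.

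Chil3 was at 1273, 9363, 11568, 10100 and 7104 CPM in bins 1 to 5 and at 4144, 1576, 540, 168 and 99.7 CPM in bins 6 to 10. It peaked in bin 3. Camp was at 23100, 65808, 72259, 64349 and 50175 CPM in bins 1 to 5 and at 38023, 18372, 6884, 2263 and 754 CPM in bins 6 to 10. Camp also peaked in bin 3, at 3.13 times its level in bin 1, against 9.08 times for Chil3. Its median per cell was 41.5 UMIs in bin 1, 938 in bin 2 and 0 in bin 10.

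Ngp was at 5843, 33694, 42437, 47597 and 46103 CPM in bins 1 to 5 and at 38375, 22106, 9299, 4074 and 1083 CPM in bins 6 to 10. It peaked in bin 4, later than Camp. The ratio of Camp to Ngp UMIs accordingly shifted along the order, with 3.95 in bin 1, 1.35 in bin 4 and 0.556 in bin 9.

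Ltf was at 212, 6087, 10019, 15020 and 17729 CPM in bins 1 to 5 and at 15748, 8539, 2629, 783 and 247 CPM in bins 6 to 10. It peaked in bin 5, 83.6 times above bin 1, the largest such ratio of the 7. Lcn2 was at 521, 7715, 11853, 16106 and 16300 CPM in bins 1 to 5 and at 13852, 9555, 5621, 3670 and 2130 CPM in bins 6 to 10. Bins 4 and 5 of Lcn2 did not differ beyond counting error, and its bin 10 was still at a level 7.65 times below the peak, against 71.8 times for Ltf.

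Cd177 was at 61.7, 640, 1005, 1392 and 1436 CPM in bins 1 to 5 and at 1298, 1072, 743, 435 and 219 CPM in bins 6 to 10. Bins 4 and 5 again overlapped, and its peak was 6.56 times bin 10, the smallest drop of the 7. Lcn2 and Cd177 were thus the longest-lasting by CPM: above 50% of their peak until bins 7 and 8. Ltf had a median of 135 UMIs per cell in bin 3 and 104 in bin 5. For Lcn2 these were 153 and 90, and for Cd177 13 and 8. Ngp had 540 in bin 3 and 331 in bin 4, and Fcnb 12 in bin 1 and 11 in bin 2. Camp had 938 in bin 2 and 925 in bin 3, and Chil3 146 and 147. By that measure every gene except Chil3 was highest in an earlier bin than by CPM. Median depth was 12792 UMIs in bin 3 and 5704 in bin 5.

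**Figure D3:**
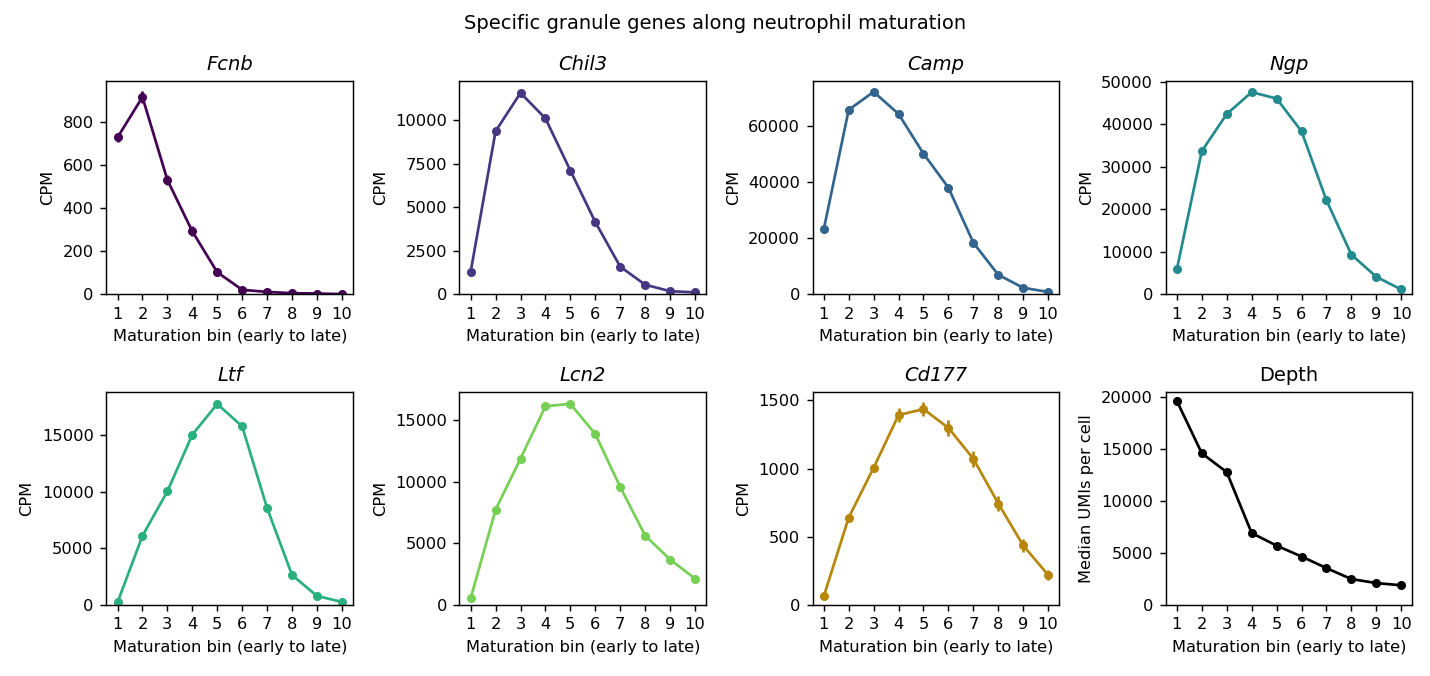
CPM of each gene over 10 bins of cells from early to late, with 95% Poisson intervals, and the median depth of each bin in the last panel. Peaks move from bin 2 for Fcnb to bin 3 for Chil3 and Camp, bin 4 for Ngp and bin 5 for Ltf, Lcn2 and Cd177, while depth falls throughout.

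The make-up of the granule RNA changed with this order. Camp was 72.8% of the UMIs of the 7 genes in bin 1, 36.1% in bin 5 and 16.6% in bin 10. Lcn2 was 1.64% in bin 1, 11.7% in bin 5 and 47.0% in bin 10, against 9.96% in B lineage-like cells with every kept barcode included, as in the other B lineage values of this comparison. In bin 10 a Lcn2 UMI was present in 68.1% of cells and a Camp UMI in 44.3%, against 17.8% and 52.2% in B lineage-like cells. The Camp share goes against its CPM, 754 in bin 10 and 206 in B lineage-like cells, so no order is read from it. Lcn2 was higher by both measures, at 2130 CPM in bin 10 and 51.7 CPM in B lineage-like cells.

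Cells of bin 1 were unlike each other. The 7 genes took a median of 0.558% of a cell's UMIs there, with 10% of cells at or below 0.0166% and 10% at or above 10.7%. In bin 3 the median was 15.2% and the same limits were 12.3% and 17.7%. Bins 6 and 7 were spread again, with a median of 4.36% and limits of 0.151% and 11.02% in bin 7.

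**Figure D4:**
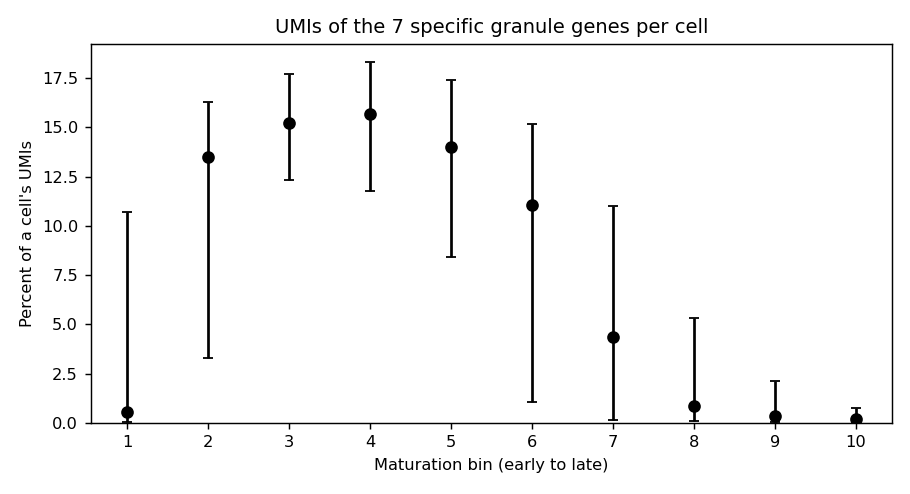
Percent of a cell's UMIs that belong to the 7 genes in each maturation bin; points are medians over cells and bars run from the 10th to the 90th percentile. Bin 1 runs from 0.0166% to 10.7%, and the median is highest in bin 4, at 15.7%.

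Because bin 1 mixed cells with and without these RNAs, the order of onset was also read cell by cell within the azurophil progenitor-like cluster. This step was added after the data were seen. It is not independent of the ordering, since each gene's limit comes from its peak bin and the bins hold these same cells. Of the cluster's 390 cells, 315 lay in bin 1, 72 in bin 2 and 3 in bin 3. A gene was called on in a cell at 10% or more of its peak bin's CPM, over the 371 azurophil progenitor-like cells with at least 5000 UMIs. Fcnb was on in 292 cells (78.7%), Camp in 190 (51.2%), Ngp in 152 (41.0%), Chil3 in 133 (35.8%), Cd177 in 79 (21.3%), Lcn2 in 62 (16.7%) and Ltf in 26 (7.01%). The intervals of neighbours overlapped between Camp and Ngp, Ngp and Chil3, and Cd177 and Lcn2. The call is coarse for Fcnb and Cd177, whose limits of 91.5 and 144 CPM a cell reaches with few UMIs, against a limit of 7226 CPM for Camp. Presence of any UMI gave another order over the cluster's 390 cells. Camp was seen in 354, Ngp in 336, Fcnb in 318, Chil3 in 281, Lcn2 in 273, Ltf in 202 and Cd177 in 160. The part of the unequal limits in the order of onset was not tested.

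By these limits, some pairs were on in nearly 1 sequence and others were not. Fcnb was on without Camp in 102 cells, and Camp was on without Fcnb in 0. Camp was on without Ngp in 41 cells and Ngp without Camp in 3. Ngp was on without Lcn2 in 90 cells and Lcn2 without Ngp in 0, and Lcn2 was on without Ltf in 38 cells and Ltf without Lcn2 in 2. Ngp was on without Chil3 in 25 cells and Chil3 without Ngp in 6. Cd177 kept less to a sequence: it was on without Lcn2 in 34 cells and Lcn2 without Cd177 in 17, and it was on without Chil3 in 11 cells and Chil3 without Cd177 in 65. With the call at 5% or at 20% of the peak, the 7 shares kept the same order, with Fcnb at 80.9% and 74.9% and Ltf at 10.2% and 1.08%. In the 605 immature neutrophil-like cells with at least 5000 UMIs, Camp and Ngp were on in 605, Ltf in 584 (96.5%) and Fcnb in 512 (84.6%). Chil3 was on in fewer of the azurophil progenitor-like cells than Camp, although its centre lay before that of Camp. Ltf was on in the fewest, although Lcn2 and Cd177 were centred later.

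Transcription factors that act in granulocyte formation were set beside this order. Cebpe, which the specific granule genes need in mice and humans, was at 298 CPM in bin 1, peaked at 432 CPM in bin 2, was at 423 in bin 3, and was at 180 CPM in bin 5 and 14.9 CPM in bin 10. Its centre of 28.3 lay between those of Fcnb and Chil3. Gfi1, a repressor needed for granulocyte formation, was at 49.8 CPM in bin 1 and 17.8 CPM in bin 2, with its centre at 21.3. Cebpb, a factor of emergency granulocyte production, ran the other way, 516 CPM in the earlier 5 bins and 2957 CPM in the later 5.

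Of the 12 transcription factors measured out of 13 listed, 5 were at least 2 times higher in the earlier 5 bins and 2 in the later 5. Of the 7 granule genes, 3 were at least 2 times higher early: Fcnb with a ratio of 64.8, Chil3 with 3.96 and Camp with 2.92. Ngp had 1.502, Lcn2 0.958, Ltf 0.953 and Cd177 0.783. Among all 9581 genes measured, 36.4% were at least 2 times higher early and 15.1% late, so a count of 3 of 7 is near the background.

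Other cargo of specific and gelatinase granules lay later in part. Of 18 measured genes out of 19 listed, 1 was early, 6 were late and 11 lay between. Among all genes measured, 36.4% were early and 15.1% late. The median log2 ratio of early over late bins was -0.70, against 0.43 over all genes measured. Orm1, an acute-phase protein, was the early one, with a ratio of 5.16, and Anxa3 followed with 1.36. Their centres, 32.1 and 41.3, lay within the span of the 7 genes, 18.3 to 48.5. Other genes of the list were centred within that span too, and others beyond it. The collagenase Mmp8 had a ratio of 0.0702 and the gelatinase Mmp9 one of 0.110. Mmp9 and Slpi, both counted among the 6 and in the median, were used for the ordering and are late by construction. The centre of Mmp8, 68.1, lay beyond that of every one of the 7 genes.

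Of 8 measured azurophil cargo genes out of 10 listed, 5 were early and 1 late. Over all genes measured the shares were 36.4% and 15.1%. Mpo, Elane, Prtn3 and Ctsg are among the 5 and were used for the ordering, and the highest ratios, of Elane with 374 and Prtn3 with 295, are therefore no result. The remaining early gene had a ratio of 2.09 (1.55 to 2.87), near the limit. Srgn, the proteoglycan core that packs granule proteins, was late with a ratio of 0.437.

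**Figure D5:**
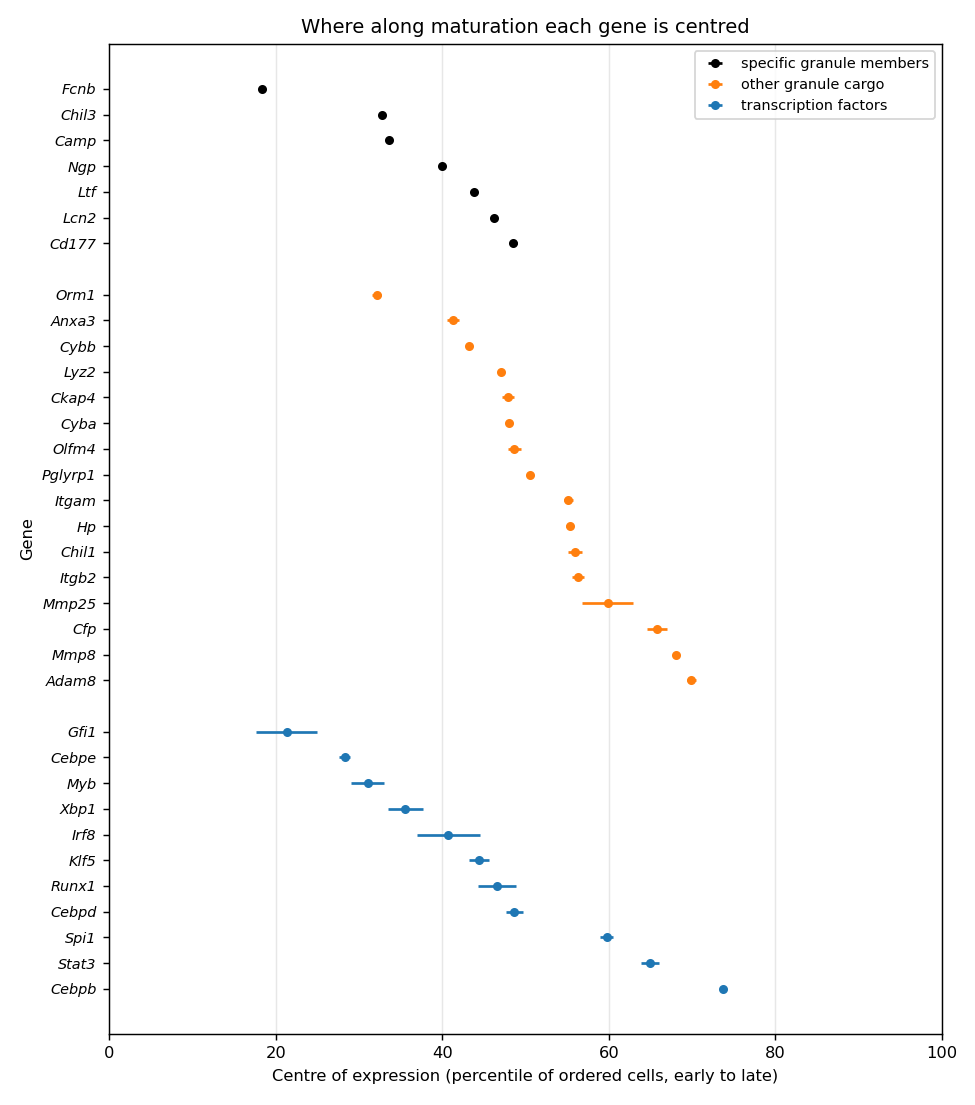
Centre of expression (percentile of ordered cells, early to late) of the 7 genes, of other specific or gelatinase granule cargo and of transcription factors, for listed genes not used for the ordering and with a standard error under 2 percentiles; bars are 95% counting intervals. The 7 genes span 18.3 to 48.5, with Mmp8 at 68.1 to their right and Cebpe at 28.3 among them.

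Partners and relatives of the 7 genes were measured in the same cells. Of 6 measured receptors and binding partners out of 12 listed, 1 was early and 2 late, beside 36.4% early and 15.1% late among all genes measured. The early one, Prtn3, and Mmp9 among the late ones were used for the ordering, so only the call of Fpr2 was free of it. Prtn3, which in humans is held on the neutrophil surface by CD177, was centred at 7.12, against 48.5 for Cd177. Itgb2, the integrin chain that pairs with CD177 in humans, was centred at 56.3 and Fpr2, a receptor for the cathelicidin peptide, at 56.8. Of 7 measured relatives out of 12 listed, 0 were early and 6 late, beside the same 36.4% and 15.1%. Chil1, a chitinase-like relative of Chil3, was centred at 56.0, and Trf, the transferrin related to lactoferrin, at 68.1. Stfa2 and Stfa2l1, protease inhibitors of the stefin family, were centred at 77.5 and 82.2.

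The genes most like each of the 7 were found by the correlation of log2(CPM + 10) over the 10 bins, among 7088 genes. The bins share 1 library and a falling depth, so these values are descriptions. Camp and Chil3 had the same first gene, C3, the central complement component, with r of 0.986 and 0.994. Ngp was most like Ets1 (0.989) and Olfml2b (0.982). Ltf was most like Ppm1m (0.988) and Itgb2l (0.985), followed by G6pdx, the first enzyme of the pentose phosphate pathway (0.984).

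Lcn2 and Cd177 had the same first gene, Wfdc21, with r of 0.994 and 0.991, and both had Anxa1 among their first 3, at 0.993 and 0.989. Fcnb was most like Baz1a (0.992). Between members, r over the bins was 0.991 for Lcn2 and Cd177, 0.979 for Camp and Chil3, and -0.01 for Lcn2 and Fcnb. Over 3135 single cells the rank correlations of these pairs were 0.520, 0.827 and 0.01. That of Ltf and Lcn2 was 0.807, so Lcn2 and Cd177 were not the closest pair in single cells. Over the 1570 cells of bins 2 to 6 the same pairs had 0.223, 0.521 and -0.119, and Ltf and Lcn2 0.519. Over the 30 clusters, the summed level of the 7 genes was most like S100a8 (0.947), S100a9 (0.944) and Pglyrp1 (0.930).

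Camp, Ngp and Ltf lie in that order on chromosome 9 of GRCm38 (GENCODE M21). Camp lies at chr9:109847379-109849617 on the minus strand, Ngp at chr9:110419747-110423012 and Ltf at chr9:111019271-111042767, both on the plus strand, with gaps of 570 and 596 kb. Fcnb, at chr2:28076378-28084885, and Lcn2, at chr2:32384633-32388252, are both on the minus strand of chromosome 2. Chil3 lies at chr3:106147554-106167564 and Cd177 at chr7:24743983-24760311, both on the minus strand. All are annotated as protein-coding. Neighbours on the chromosome did not share a centre: Camp, Ngp and Ltf were at 33.6, 40.0 and 43.8, and Fcnb and Lcn2 at 18.3 and 46.2.

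Since Cebpe lay among the 7 genes in time, their promoters were searched for the C/EBP letters TTGCNNAA on both strands, over 250 bases before the RefSeq start (GRCm38.p6). They were present in 4 of the 7, with 2 matches each in Fcnb and Ngp and 1 each in Lcn2 and Ltf, and in 9.56% of 32851 promoters. ETS letters GGAAGT were in Fcnb, Chil3 and Cd177 (19.7% of promoters), Gfi1 letters AAATCA in Chil3 and Ltf (12.4%), and TATAAA in Cd177 (12.4%). None overlapped a C/EBP match. A match is only a run of letters. The sequences of the earliest gene, of Chil3 without a C/EBP match, and of Ngp and Ltf are shown to where the GENCODE gene begins, with C/EBP letters in capitals. They are Fcnb at chr2:28084886-28085128 on the minus strand, Chil3 at chr3:106167565-106167814 on the minus strand, Ngp at chr9:110419558-110419746 on the plus strand and Ltf at chr9:111019042-111019270 on the plus strand. The second match of Ngp lies past the end of the stretch shown. For Lcn2 all 250 bases, with its match, lie inside the GENCODE gene, and for Camp 161 of them do.
Fcnb: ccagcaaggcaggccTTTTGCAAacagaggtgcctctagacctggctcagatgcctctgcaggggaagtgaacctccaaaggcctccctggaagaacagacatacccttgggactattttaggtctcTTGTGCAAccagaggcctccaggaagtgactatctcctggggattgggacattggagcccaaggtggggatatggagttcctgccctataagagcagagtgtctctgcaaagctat
Chil3: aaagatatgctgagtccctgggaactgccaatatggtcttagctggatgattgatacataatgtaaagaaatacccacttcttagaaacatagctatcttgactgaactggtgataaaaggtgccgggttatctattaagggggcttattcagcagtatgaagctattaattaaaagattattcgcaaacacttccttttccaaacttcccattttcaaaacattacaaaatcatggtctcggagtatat
Ngp: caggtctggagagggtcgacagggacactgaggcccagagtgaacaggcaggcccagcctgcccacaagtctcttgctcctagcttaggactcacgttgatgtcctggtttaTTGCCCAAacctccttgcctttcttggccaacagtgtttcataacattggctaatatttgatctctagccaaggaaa
Ltf: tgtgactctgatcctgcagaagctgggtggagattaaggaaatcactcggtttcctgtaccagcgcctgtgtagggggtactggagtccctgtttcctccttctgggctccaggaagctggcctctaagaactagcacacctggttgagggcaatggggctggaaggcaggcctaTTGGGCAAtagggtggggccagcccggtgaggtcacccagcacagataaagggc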

How the data were processed

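Per the file headers, Cell Ranger 3.1.0 made the deposited matrix, which holds raw UMI counts. Seurat 3 and the build mm10 are named in the submitters' processing notes. A second deposited matrix of counts for added sequences was not used here. Depth ranged over 500 to 80413 UMIs per barcode. Barcodes under 500 UMIs or 200 genes, or above 10% mitochondrial UMIs, were left out, and Scrublet (scanpy 1.11.5) marked 522 of 11007 (4.74%) as doublets, which were removed. The 2000 most variable genes, without the 7, gave 30 components and Leiden clusters (leidenalg 0.10.2, resolution 1).

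The 7 genes, the lists and the naming rule were chosen with earlier results of these data known. A marker was raised where its CPM was 2 times that elsewhere and 10% or more of the cluster's cells had it. The name with most raised markers (at least 3, no tie) was given unless another type had more among the 10 leading genes, or the cluster was shallow and led by none of its own. This left 537 cells in 5 clusters unnamed. Named genes are the 7, the most like them, and at most the 2 highest and 2 lowest of each list, plus transcription factors and partners for their role. List genes needed 50 UMIs in the ordered cells. Intervals are exact Poisson for CPM, Clopper-Pearson for shares and conditional binomial for ratios. In simulated data, 200 genes drawn from 8884 were given a changed ratio, and 96.0% of the intervals of those 200 held the true ratio.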

Additional observations from a re-analysis of the deposited data

How the results depend on the processing

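All values come from 1 library, and leaving out a sample record was not possible because the records are pooled. No paired analysis was possible because the cells carry no record or replicate number. The number of the 7 genes at least 4 times higher in neutrophil-like cells was 6, and it was 0 at a limit of 5% mitochondrial UMIs. The number at least 2 times higher in the earlier 5 bins was 3, and it was 5 at that limit. It was 4, with Ngp added, at a limit of 20% and with cells thinned to 1000 UMIs before scoring. The 3 genes above the B lineage make-up in monocyte or macrophage-like cells, Chil3, Cd177 and Fcnb, were the same under every alternative run. The ratio of Fcnb in neutrophil-like cells to all others, 3.27, was 0.365 at the limit of 5%, 0.761 at a limit of 20%, 0.534 with the 7 genes kept in the clustering and 0.698 with at least 1500 UMIs per cell. In these settings 11.4% to 22.0% of the most immature neutrophil-like cells kept that name, against 80.1% or more in the others. Of the other CPM ratios, 57 moved beyond their counting interval and 2 did not. The order of the 7 onset shares was the same with the call at 5% and at 20% of the peak. The order of the 7 centres was the same in all, although 78 centres moved, Fcnb between 10.4 and 19.8 and Cd177 between 43.2 and 49.3.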
